A study of Mus musculus with 12 samples.

Results

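The expression of 10 marker genes of Kupffer cells and tissue macrophages was followed in mice homozygous for the R135W variant of Mars2, the gene of mitochondrial methionyl-tRNA synthetase, and in wild-type (WT) mice. The members were taken by gene symbol from the 24062 genes counted: Clec4f, Timd4, Vsig4, Marco and Cd5l as markers of Kupffer cells, and Emr1, Cd68, Csf1r, Folr2 and Mrc1 as markers shared by tissue macrophages. Liver and gastrocnemius, a calf muscle, were sampled from 6 mice, 3 of each genotype, which gave 12 libraries of polyadenylated RNA in 4 groups of 3. All mice were female, of the C57BL/6N strain and fed chow. The R135W animals, numbered 5, 7 and 12, were 9.0, 7.4 and 8.6 weeks old, and the WT animals, numbered 6, 8 and 9, were 9.0, 9.0 and 7.4 weeks old. The study's stated subject is the type I interferon response to the loss of Mars2 function. The labels give no batch or litter. Each animal gave a single library per tissue, so differences between animals and those of sampling and preparation cannot be told apart in the spread between libraries.

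Kupffer cells are the macrophages of the liver sinusoids, where they take particles, microbes and dying cells from the blood. They arise mainly from embryonic progenitors and renew themselves, and monocytes can replace them after loss. Their survival depends on the CSF1 receptor, and the transcription factor PU.1, encoded by Spi1, is needed for the macrophage lineage as a whole. Skeletal muscle holds its own macrophages in the connective tissue between fibres, which carry the shared markers but not the full Kupffer cell set.

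Total counts ran from 20751583 to 30460237 per library, and replicate libraries differed by more than counting error, with a chi-squared per degree of freedom between 41.7 and 118 for livers and between 8.07 and 17.8 for muscles. Levels are given as CPM, counts per 1000000 counts of a library, on 1 scaling over all 12 libraries. The tissue labels fitted their markers: 5 hepatocyte genes summed to 66675 to 73275 CPM in R135W livers and 81384 to 83137 CPM in WT livers, and 5 muscle fibre genes summed to between 112539 and 151316 CPM in the muscle libraries. The gastrocnemius library of R135W animal 12 stood apart in its hepatocyte genes, at 37.4 CPM against 0.348 to 6.32 CPM in the other muscle libraries, so muscle results are also given without it. No member shares exon bases with another gene of the annotation used. The R135W change itself cannot be read from gene counts.

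In liver, 9 of the 10 markers rose in R135W mice. The largest changes were those of the scavenger receptor gene Marco, 4.35-fold higher, the surface receptor gene Emr1, 2.89-fold, the secreted-protein gene Cd5l, 2.79-fold, and the lysosomal gene Cd68, 2.32-fold. The mannose receptor gene Mrc1 did not pass the test. The 10 log2 fold changes of R135W over WT ran from 0.25 to 2.12, with a median of 1.02, against a median of -0.01 over all 13935 genes tested. Each was tested with edgeR's quasi-likelihood F test, with Benjamini-Hochberg adjustment over all tested genes and a threshold of 0.05; 457 genes (3.28%) passed it, 384 (2.76%) of them upward, and by DESeq2 781 passed, 537 of them upward. For the 9 markers every R135W library lay above every WT library, an arrangement that 14.1% of all tested genes showed. In whole tissue, more cells of a type and more RNA per cell cannot be told apart.

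**Figure D1:**
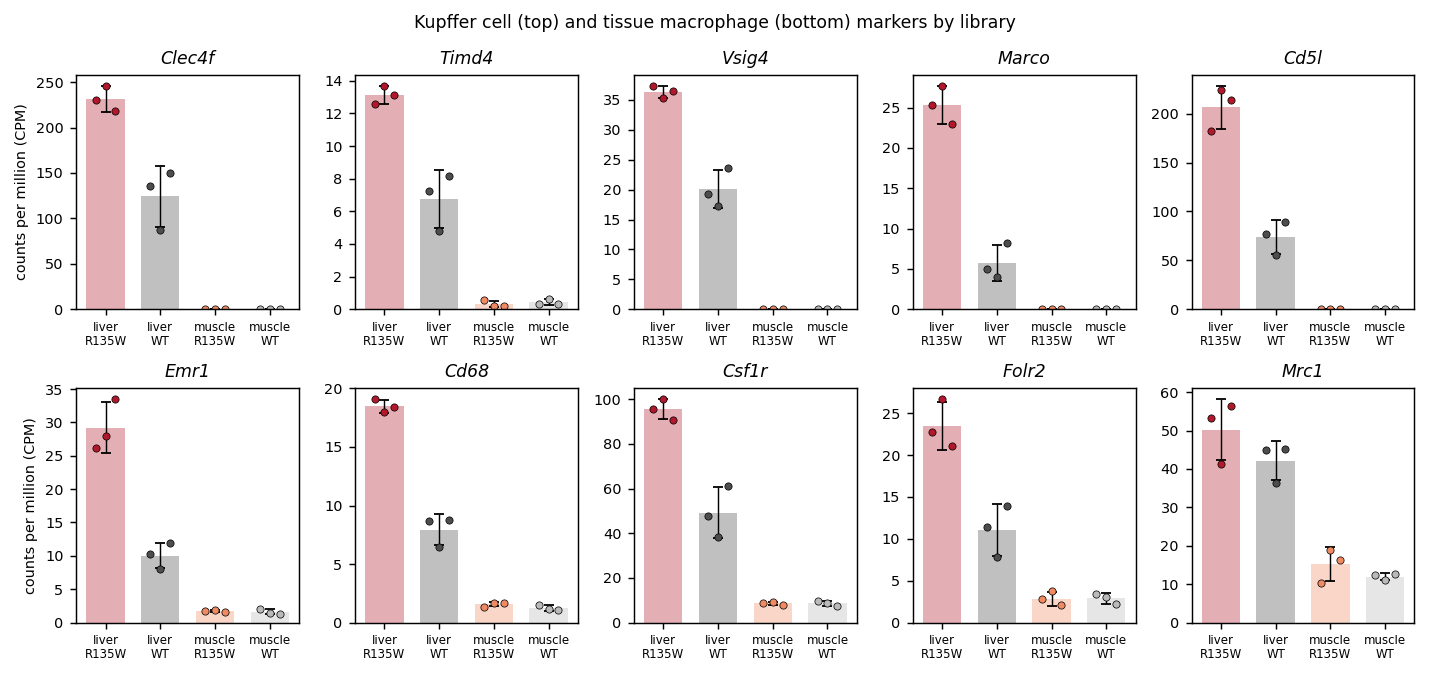
Level of each marker in CPM (vertical axis, linear, from 0, its range set per gene) in the 4 groups (horizontal axis; muscle is gastrocnemius). Points are libraries, bars are means and error bars are SD over 3 animals. In liver the R135W points lie above the WT points for all markers but Mrc1, and the 5 Kupffer cell markers of the top row are at or near 0 in muscle.

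Among the Kupffer cell markers, Marco encodes a class A scavenger receptor that binds bacteria and particles (chromosome 1:120474538-120505084, minus strand, mm10). It stood at 25.3, 27.7 and 23 CPM in the livers of R135W animals 5, 7 and 12, against 4.95, 4.05 and 8.26 CPM in those of WT animals 6, 8 and 9. The lowest R135W library was well above the highest WT library. The log2 fold change was 2.12 (SE 0.24, edgeR adjusted p = 0.00671), which ranked 23rd by size among the 384 genes that rose. Cd5l encodes a secreted protein of macrophages that binds IgM and protects cells from apoptosis (chromosome 3:87357881-87371074, plus strand, mm10). Its levels were 182, 224 and 214 CPM in R135W livers and 76.8, 55.6 and 89.3 CPM in WT livers. The groups did not overlap, and the log2 fold change was 1.48 (SE 0.18, edgeR adjusted p = 0.00831). Vsig4 encodes CRIg, the complement receptor with which Kupffer cells catch opsonised bacteria (chromosome X:96247203-96293438, minus strand, mm10). It had 37.3, 35.3 and 36.5 CPM in R135W livers, a narrow range, and 19.3, 17.3 and 23.6 CPM in WT livers. Its log2 fold change was the smallest of those that passed, at 0.85 (SE 0.13, edgeR adjusted p = 0.0166).

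Clec4f, a C-type lectin gene whose product marks Kupffer cells in mice (chromosome 6:83644542-83656116, minus strand, mm10), had the highest CPM of the set. It reached 230, 246 and 218 CPM in R135W livers, against 136, 86.7 and 150 CPM in WT livers. The groups were apart, but the WT animals differed widely among themselves, and the log2 fold change of 0.89 (SE 0.20) only just passed, with an edgeR adjusted p of 0.0495. Timd4 encodes a receptor for phosphatidylserine on dying cells and in mice marks long-resident macrophages (chromosome 11:46810799-46844333, plus strand, mm10). It had 12.6, 13.7 and 13.1 CPM in R135W livers and 7.27, 4.78 and 8.18 CPM in WT livers. Again no WT library reached the lowest R135W one, with a log2 fold change of 0.96 (SE 0.20, edgeR adjusted p = 0.0369).

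Of the markers shared by tissue macrophages, Emr1, now named Adgre1, encodes an adhesion-type receptor at the cell surface that is the classical antigen for staining mouse macrophages (chromosome 17:57358686-57483529, plus strand, mm10). It measured 26.1, 28 and 33.5 CPM in R135W livers and 10.2, 8.04 and 11.9 CPM in WT livers, with a log2 fold change of 1.53 (SE 0.17, edgeR adjusted p = 0.00671). Cd68, which encodes a glycoprotein of lysosomal membranes (chromosome 11:69664213-69666170, minus strand, mm10), measured 19.1, 18 and 18.4 CPM in R135W livers and 8.66, 6.43 and 8.73 CPM in WT livers. Its change was 1.21 (SE 0.15, edgeR adjusted p = 0.0082) on the log2 scale, and the R135W values were almost level. Csf1r, the receptor gene for the survival factors CSF1 and IL-34 (chromosome 18:61105572-61131139, plus strand, mm10), had 95.8, 100 and 90.9 CPM in R135W livers and 47.9, 38.3 and 61.1 CPM in WT livers. The groups were apart, with a log2 fold change of 0.96 (SE 0.17, edgeR adjusted p = 0.0229). Folr2, which encodes folate receptor beta (chromosome 7:101839988-101845331, minus strand, mm10), had 22.7, 26.7 and 21.1 CPM in R135W livers and 11.4, 7.8 and 13.9 CPM in WT livers, with a log2 fold change of 1.08 (SE 0.21, edgeR adjusted p = 0.0296).

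Mrc1 encodes the mannose receptor CD206, which liver sinusoidal endothelial cells carry as well as macrophages (chromosome 2:14229414-14332023, plus strand, mm10). It had 53.2, 41.2 and 56.3 CPM in R135W livers and 44.9, 36.3 and 45.2 CPM in WT livers. The library of R135W animal 7 lay below those of WT animals 6 and 9, so the groups overlapped, and the log2 fold change was 0.25 (SE 0.15, edgeR adjusted p = 0.429). The 8 markers of liver sinusoidal endothelial cells summed to 337 to 435 CPM in R135W livers and 286 to 462 CPM in WT livers, and 0 of them passed the test by edgeR, also at an unadjusted p under 0.05, and 0 by DESeq2. Their part in the Mrc1 level was not tested.

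**Figure D2:**
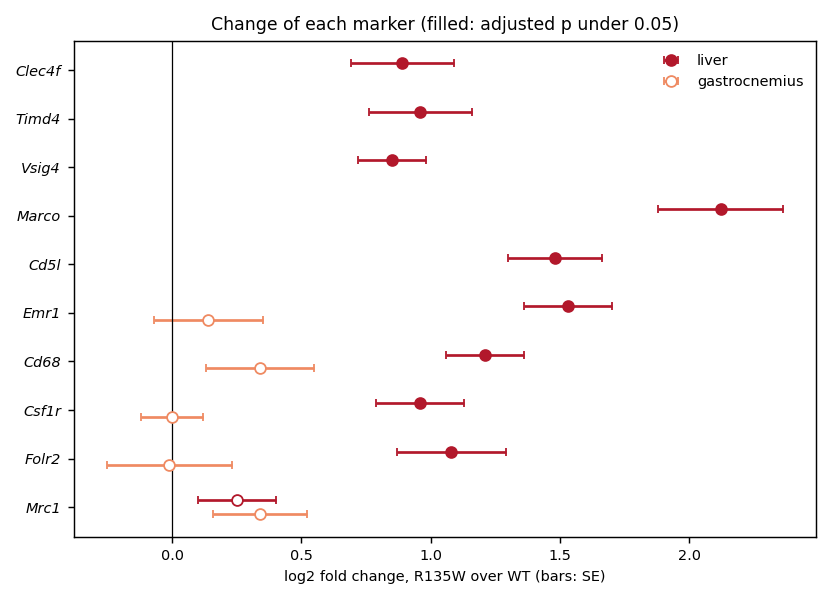
Log2 fold change of R135W over WT (horizontal axis) for each marker (vertical axis) in liver and gastrocnemius, with bars for the SE and filled points for an adjusted p under 0.05. In liver 9 points are filled, from 0.85 for Vsig4 to 2.12 for Marco; in gastrocnemius the 5 markers that could be tested lie from -0.01 to 0.34 and none is filled.

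The 9 calls were not equally firm. Marco, Cd5l, Emr1 and Cd68 passed in each of 7 other settings and in each of 6 fits that left out 1 liver library, whereas Clec4f and Timd4 passed in none of those 6 fits (adjusted p = 0.0735 to 0.139 and 0.0669 to 0.117, edgeR). Their log2 fold changes in all settings stayed at 0.68 to 1.04 and 0.76 to 1.12. With 5 libraries the calls over all genes also fell, to 84 to 285 against 457, so a lost call in such a fit does not by itself mark a smaller change. Vsig4 lost its call without R135W animal 7 (edgeR adjusted p = 0.0559) or WT animal 8 (0.0572). Csf1r lost it without R135W animals 5 (0.0536) or 7 (0.0757) or WT animals 6 (0.0559) or 8 (0.0619). Folr2 kept it only without R135W animal 12 (0.0479), with 0.0529 to 0.0971 when any other library was left out. The number of markers called was 5 without R135W animal 5 (266 of all genes called), 4 without R135W animal 7 (114), 5 without WT animal 6 (285) and 4 without WT animal 8 (104).

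The WT livers kept 1 order for the whole set: animal 8 was lowest and animal 9 highest for 10 of 10 markers. The share of all genes in that order was not counted. General phagocyte genes summed to 334, 259 and 370 CPM in WT animals 6, 8 and 9, the same order. Sinusoidal endothelial genes, at 462, 286 and 384 CPM, were also lowest in animal 8 but highest in animal 6. Other Kupffer cell genes, at 358, 392 and 352 CPM, were highest in animal 8. No single order of the markers held in R135W livers, where animal 7 was highest for 6 markers and the lowest place was split among the 3 animals. The coefficient of variation was smaller in R135W livers than in WT livers for every marker except Mrc1, for example 2.82% against 16% for Vsig4, 3.14% against 16.4% for Cd68 and 9.18% against 38.6% for Marco. For Mrc1 it was 15.9% in R135W livers and 12% in WT livers. With 3 animals a group these spreads are descriptions and were not tested.

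Levels of different genes were set side by side as CPM per kilobase of exon. In R135W livers Cd5l, at 101 ± 10.8, and Clec4f, at 96.3 ± 5.84 (SD, n = 3), stood far above the rest, and their ranges overlapped. Vsig4 (25.4 ± 0.716), Csf1r (24.7 ± 1.2) and Folr2 (21.8 ± 2.7) followed, with neighbours overlapping, then Cd68 (14.5 ± 0.456) and Marco (12.8 ± 1.17), and Timd4 was lowest at 6.05 ± 0.248 CPM per kilobase. In WT livers Clec4f led at 51.7 ± 13.8 and Cd5l followed at 36.3 ± 8.38 CPM per kilobase, overlapping again, though Clec4f was higher in 3 of 3 animals. The WT order ended with Timd4 (3.1 ± 0.81), Emr1 (3.1 ± 0.595) and Marco (2.9 ± 1.12 CPM per kilobase), whose ranges overlapped. By group mean Marco ranked 10th of the 10 genes in WT livers and 7th in R135W livers. The WT rank did not hold in each animal. In WT animal 9 Marco had 4.16 CPM per kilobase, above Timd4 (3.76) and Emr1 (3.67).

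The make-up of the summed marker level was compared as shares of CPM per kilobase, as a description with no test. Marco made up 3.97% ± 0.267 of the sum in R135W livers and 1.93% ± 0.371 in WT livers (SD, n = 3 each). Cd5l made up 31.5% ± 2.25 in R135W livers and 24.5% ± 0.139 in WT livers, and Mrc1 2.95% ± 0.579 in R135W livers and 5.45% ± 0.687 in WT livers. Clec4f made up 30% ± 1.27 in R135W livers and 34.7% ± 2.05 in WT livers. Ratios between members, chosen after their values were seen and given without a test, set 1 member against another library by library. They differ from the shares and depend on the member below the line as well. Marco per Clec4f was 0.133, 0.136 and 0.128 in R135W livers and 0.044, 0.0564 and 0.0667 in WT livers, with no overlap. Cd5l per Clec4f was 0.932, 1.08 and 1.16 in R135W livers and 0.666, 0.755 and 0.703 in WT livers, again apart. Mrc1 per Emr1 was 1.24, 0.897 and 1.02 in R135W livers and 2.68, 2.76 and 2.32 in WT livers, lower in each R135W animal than in any WT animal. Timd4 per Clec4f, by contrast, was 0.0606, 0.0617 and 0.0667 in R135W livers and 0.059, 0.0608 and 0.0603 in WT livers, and these overlapped. Vsig4 per Clec4f overlapped too, at 0.241 to 0.281 in R135W livers and 0.238 to 0.335 in WT livers.

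**Figure D3:**
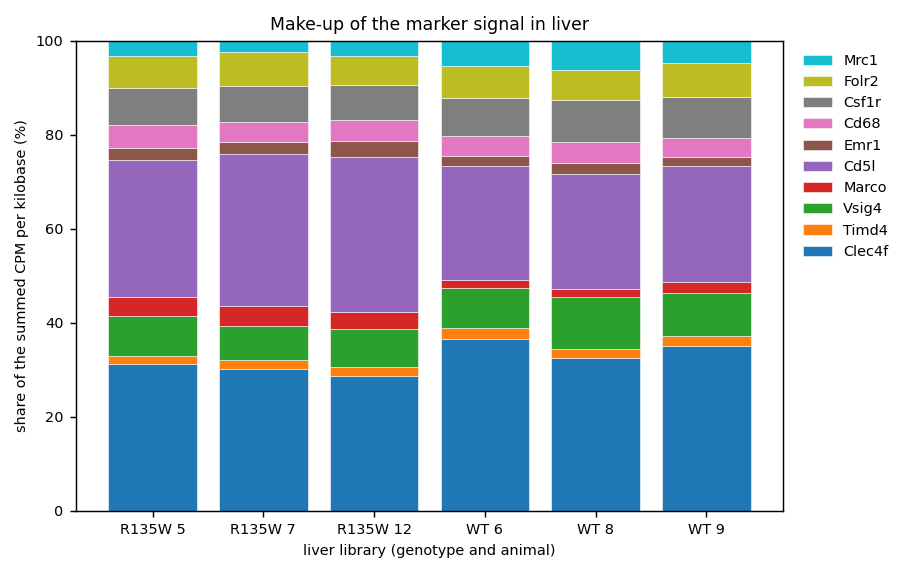
Share of each marker in the summed CPM per kilobase of the 10 markers (vertical axis, percent) in each liver library (horizontal axis, genotype and animal number). Clec4f and Cd5l fill most of each bar; the red band of Marco is 3.66% to 4.12% in R135W livers and 1.61% to 2.33% in WT livers, and the top band of Mrc1 is thinner in R135W livers.

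In gastrocnemius, 0 of the 5 shared markers passed the edgeR test, against 121 of 13826 tested genes (0.875%). An unadjusted p under 0.05 was found for 0 of the 5 and for 1595 of all tested genes. DESeq2 and limma-voom called 0 of the 5 shared markers. Mrc1 was the most abundant by CPM, at 10.3, 19 and 16.3 in R135W muscles and 12.3, 11 and 12.6 in WT muscles. R135W animal 5 lay below all WT animals and the other R135W animals above them, and the log2 fold change was 0.34 (SE 0.18, edgeR adjusted p = 0.525). Csf1r had 8.63, 9.19 and 7.98 CPM in R135W muscles and 9.68, 8.7 and 7.43 CPM in WT muscles, with group means of 8.6 CPM in both and a log2 fold change of 0.00 (SE 0.12, edgeR adjusted p = 0.996). Emr1 had 1.77, 1.86 and 1.65 CPM in R135W muscles and 2.04, 1.49 and 1.28 CPM in WT muscles (log2 fold change 0.14, SE 0.21). Cd68 had 1.35 to 1.67 CPM in R135W muscles and 1.04 to 1.5 CPM in WT muscles (0.34, SE 0.21), and Folr2 had 2.07 to 3.72 CPM in R135W muscles and 2.17 to 3.45 CPM in WT muscles (-0.01, SE 0.24). The groups overlapped for all 5 markers. Without the R135W library that held hepatocyte genes, 0 of the 5 passed as well. Per kilobase, Mrc1, Folr2 and Csf1r overlapped at the top of the muscle order (2.22 to 2.86 CPM per kilobase as group means), with Cd68, Emr1 and Timd4 below them in that order and apart from each other in both genotypes.

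The 5 Kupffer cell markers did not pass the filter on low counts in gastrocnemius and have no genotype test there. The 3 R135W muscles together held 2 counts of Clec4f, 0 of Vsig4, 1 of Marco and 4 of Cd5l, and the 3 WT muscles held 1, 2, 3 and 3 counts of these genes in the same order. The 2 Clec4f counts and 3 of the 4 Cd5l counts of R135W muscles were in the library of animal 12, which also held 771 counts of albumin (Alb), against 7 to 123 in the other muscle libraries. In WT muscles the 1 Clec4f count and all 3 Cd5l counts were in the library of animal 6. It held 123 counts of Alb, against 7 and 8 in WT animals 8 and 9. Marco went the other way, with 0 counts in WT animal 6 and 1 and 2 in WT animals 8 and 9. The source of these counts was not tested. Timd4 had the most counts of the 5 markers, with 13, 6 and 5 in R135W muscles and 7, 18 and 9 in WT muscles, which overlap. A library with no count of a gene allowed up to 0.109 to 0.126 CPM in muscle (3 counts; counting error only).

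In WT mice all 5 shared markers were higher in liver than in gastrocnemius, where 40.9% of 15414 tested genes were higher in liver and 82.1% differed either way (edgeR, 12 libraries). Cd68 stood at 7.94 ± 1.31 CPM in WT liver and 1.24 ± 0.234 CPM in WT gastrocnemius (SD, n = 3 each), with a log2 fold change of 2.70 (SE 0.17, edgeR adjusted p = 5.4e-09), and Mrc1, the least liver-biased, at 42.1 ± 5.04 CPM in liver and 12 ± 0.842 CPM in gastrocnemius, with 1.83 (SE 0.19, edgeR adjusted p = 8.9e-07). The Kupffer cell markers passed the filter on low counts only through liver, so they are described and not counted as calls. Their fold rests on few counts in muscle and is given as a ratio of summed counts with its exact 95% interval for counting error. Clec4f was 9760 times higher in WT liver (interval 1751 to 385558), Cd5l 1936 times (662 to 9390), Vsig4 786 times (217 to 6494) and Marco 153 times (51.9 to 743). Timd4 was only 15.6 times higher in WT liver (11 to 22.8) and 41.7 times in R135W liver (27.8 to 65.3). In R135W mice Marco was 1902 times higher in liver than in gastrocnemius (341 to 75173), and Vsig4, with 2969 counts in liver and 0 in muscle, at least 925-fold higher, taking 3 counts over the group as the floor.

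Whether the genotype effect differed between tissues was tested as the interaction of genotype and tissue over all 12 libraries, which 20 of 15414 genes (0.13%) passed. None of the 5 shared markers passed it by edgeR, although 4 had an unadjusted p under 0.05 and DESeq2 called 2. Over all 15414 genes, 1534 had an unadjusted p under 0.05 by edgeR and DESeq2 called 184. The Kupffer cell markers entered this fit only through their liver counts, so no call is read from it for them. Clec4f, Vsig4, Marco and Cd5l also had too few counts in muscle for a usable comparison. Timd4 had 24 counts in R135W muscles and 34 in WT muscles. Its difference, liver minus gastrocnemius, was 1.41 log2 units (SE 0.52), given as a description. The difference, liver minus gastrocnemius, was 1.39 log2 units for Emr1 (SE 0.27, edgeR adjusted p = 0.0893), 0.95 for Csf1r (SE 0.21, 0.124), 1.09 for Folr2 (SE 0.34, 0.307), 0.87 for Cd68 (SE 0.24, 0.218) and -0.10 for Mrc1 (SE 0.26, 0.954). DESeq2 called Emr1 (adjusted p = 0.0021) and Csf1r (0.0149). Without the liver library of WT animal 9, edgeR called Csf1r (adjusted p = 0.0432). By edgeR on all 12 libraries, a rise past the threshold in liver and none in muscle is therefore not shown to be a difference between the tissues for the shared markers, and for Emr1 and Csf1r this depends on the tool.

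Promoter windows were taken from RefSeq (GRCm38.p6, 250 bases before to 50 after a gene's start). No window was used for Emr1 or Csf1r, and whether RefSeq holds one for them was not tested. The windows used, each taken under a member's symbol, numbered 9, for 8 of the 10 members. The lack of a window for the others does not show that their symbols had no match. They were searched on both strands for GAGGAA, the ETS core found in PU.1 sites, for the interferon-stimulated response element as GAAA, 2 further bases and GAAA, and for the AP-1 site TGANTCA, which do not overlap in the members' windows. GAGGAA or its reverse complement was in the windows of 5 of the 8 members and in 28.3% of all 32851 windows, the interferon element in 0 of 8 and 3.44%, and the AP-1 site in 2 of 8 and 7.81%. The 4 windows printed here, 5′ to 3′ on the gene's strand with matches in capitals, are those of the markers with the largest rise in each role (Marco, a receptor, and Cd5l, a secreted protein), of Clec4f, the marker with the highest CPM, and of Mrc1, the marker that did not pass in liver.

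Marco, chr1:120504975-120505274, minus strand: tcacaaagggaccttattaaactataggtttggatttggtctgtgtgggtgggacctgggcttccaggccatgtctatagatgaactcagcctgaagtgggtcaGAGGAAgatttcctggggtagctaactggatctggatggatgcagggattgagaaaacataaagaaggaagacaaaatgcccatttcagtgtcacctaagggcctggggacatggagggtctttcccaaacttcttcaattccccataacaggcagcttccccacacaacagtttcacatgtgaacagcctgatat

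Cd5l, chr3:87357631-87357930, plus strand: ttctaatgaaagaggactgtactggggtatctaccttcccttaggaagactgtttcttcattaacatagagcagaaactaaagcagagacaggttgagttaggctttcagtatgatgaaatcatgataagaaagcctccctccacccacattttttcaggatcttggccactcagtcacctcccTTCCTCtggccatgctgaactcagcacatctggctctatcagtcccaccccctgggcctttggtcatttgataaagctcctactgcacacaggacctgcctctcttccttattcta

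Clec4f, chr6:83656067-83656366, minus strand: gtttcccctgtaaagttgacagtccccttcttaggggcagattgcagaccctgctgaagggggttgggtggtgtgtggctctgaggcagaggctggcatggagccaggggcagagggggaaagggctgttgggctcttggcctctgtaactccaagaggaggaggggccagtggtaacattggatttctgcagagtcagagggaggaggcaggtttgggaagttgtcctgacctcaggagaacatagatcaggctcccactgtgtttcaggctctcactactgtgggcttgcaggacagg

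Mrc1, chr2:14229164-14229463, plus strand: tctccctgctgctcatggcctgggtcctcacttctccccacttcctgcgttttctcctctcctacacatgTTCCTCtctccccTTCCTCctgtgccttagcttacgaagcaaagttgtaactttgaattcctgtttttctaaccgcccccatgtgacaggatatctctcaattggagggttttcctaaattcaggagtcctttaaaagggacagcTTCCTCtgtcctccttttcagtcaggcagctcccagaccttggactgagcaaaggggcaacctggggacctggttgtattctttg

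The Marco window holds 1 match of GAGGAA, centred 143 bases before the start, and that of Cd5l 1, in reverse complement, 63 bases before it. The Mrc1 window holds 3, all in reverse complement, at 177, 164 and 32 bases before the start, and the Clec4f window none of the 3 motifs. Among the 8 members searched, Mrc1 had the most matches of GAGGAA. A relation between matches and change in liver was not tested. Of the windows not printed, Vsig4 and Cd68 had 2 matches of GAGGAA each. The AP-1 site was found 2 times in the Cd68 window and once in 1 of the 2 windows of Folr2, and Timd4 had none of the 3 motifs. A match describes the letters of these windows and is not a measured binding site.

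Genes of the wider macrophage program were read in liver from further lists. Over all 13935 genes tested in liver, 2449 had an unadjusted p under 0.05. Of 15 general phagocyte genes 12 rose, with a median log2 fold change of 1.09, among them Cybb, the catalytic subunit of the phagocyte oxidase (1.19, SE 0.15, edgeR adjusted p = 0.00831), Laptm5, a lysosomal protein of blood cells (1.09, SE 0.14), Ctss, a lysosomal protease (0.99, SE 0.13), and Tyrobp, a signalling adaptor (1.12, SE 0.15). Mertk, a receptor for dying cells on that list, stood at 27.3, 26.7 and 30.4 CPM in R135W livers and 30.6, 30.3 and 31.7 CPM in WT livers and did not pass (edgeR adjusted p = 0.536). Leaving out R135W animal 7 or WT animal 9 left 6 of the 15 called, beside 114 and 84 of all genes, and the fewest in the other settings were 12. Of 4 lipid-associated macrophage genes tested 0 passed by edgeR, with 2 at an unadjusted p under 0.05, a median of 0.36 and at most 1 called in another setting; Fabp5 stood at 0.69 (SE 0.16, edgeR adjusted p = 0.0546) and Trem2, a lipid receptor gene, at 1.32 (SE 0.41, 0.142). Of 3 perivascular macrophage genes tested 0 passed by edgeR or in any other setting, with 2 at an unadjusted p under 0.05 and a median of 0.36; the lectin gene Cd209f stood at 1.18 (SE 0.39, edgeR adjusted p = 0.164) and the hyaluronan receptor gene Lyve1 at 0.36 (SE 0.16, 0.277).

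Of 11 transcription factors of the lineage 3 rose, with a median of 0.51. Spic, a factor of iron-recycling macrophages, had 3.49, 3.04 and 4.22 CPM in R135W livers and 1.25, 1.32 and 1.54 CPM in WT livers, fully apart (log2 fold change 1.38, SE 0.22, edgeR adjusted p = 0.0164). Spi1, the PU.1 gene, had 12.9, 10.7 and 11.2 CPM in R135W livers and 6.53, 3.56 and 5.06 CPM in WT livers (1.19, SE 0.22, edgeR adjusted p = 0.0245), and Irf8, a factor of monocyte development, rose by 0.70 (SE 0.14, edgeR adjusted p = 0.0347). Nr1h3, which encodes LXR-alpha and is also active in hepatocytes, had a log2 fold change of 0.07 (edgeR adjusted p = 0.797). Spic lost its call without WT animal 8 (0.0642) or 9 (0.0566), Spi1 and Irf8 without any single library except WT animal 6 (0.0503 to 0.106 and 0.0595 to 0.118). Of 7 ligands of the macrophage niche only Tgfb1 rose, by 0.84 (SE 0.17, edgeR adjusted p = 0.035). Its adjusted p was 0.0718 to 0.14 without any single library except WT animal 6. The CSF1 receptor ligand genes Csf1 (0.51, edgeR adjusted p = 0.164) and Il34 (0.06, 0.9) did not pass. Csf1 had 17.5, 17.3 and 13.4 CPM in R135W livers and 13, 11.2 and 9.64 CPM in WT livers, which were apart. It passed in the fit of all 12 libraries (edgeR adjusted p = 0.0495), where 1057 genes were called.

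Of 10 other Kupffer cell genes 2 rose and 1 fell, with a median of 0.43. Clec1b, which encodes the podoplanin receptor CLEC-2, had 14.3, 13.6 and 13.9 CPM in R135W livers and 8.89, 6.48 and 8.02 CPM in WT livers (log2 fold change 0.83, SE 0.15, edgeR adjusted p = 0.0241). Il18bp, which encodes the binding protein of interleukin 18, rose by 0.91 (SE 0.11, edgeR adjusted p = 0.0082) and passed in all 6 fits with a library left out. Cd207, which encodes langerin and is known from Langerhans cells, ran the other way, at 0.593, 0.609 and 0.603 CPM in R135W livers and 2.13, 1.46 and 2.45 CPM in WT livers. The groups were apart and Cd207 fell by 1.75 on the log2 scale (SE 0.29, edgeR adjusted p = 0.0182), while 73 of all tested genes (0.524%) fell. That call was lost without any of the R135W animals or without WT animal 9 (0.053 to 0.078), and that of Clec1b without any library except WT animal 6 (0.0544 to 0.0924). Cd163, the haemoglobin scavenger receptor gene, had 9.46 to 16.5 CPM in R135W livers and 11 to 21.7 CPM in WT livers, which overlap (edgeR adjusted p = 0.458).

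**Figure D4:**
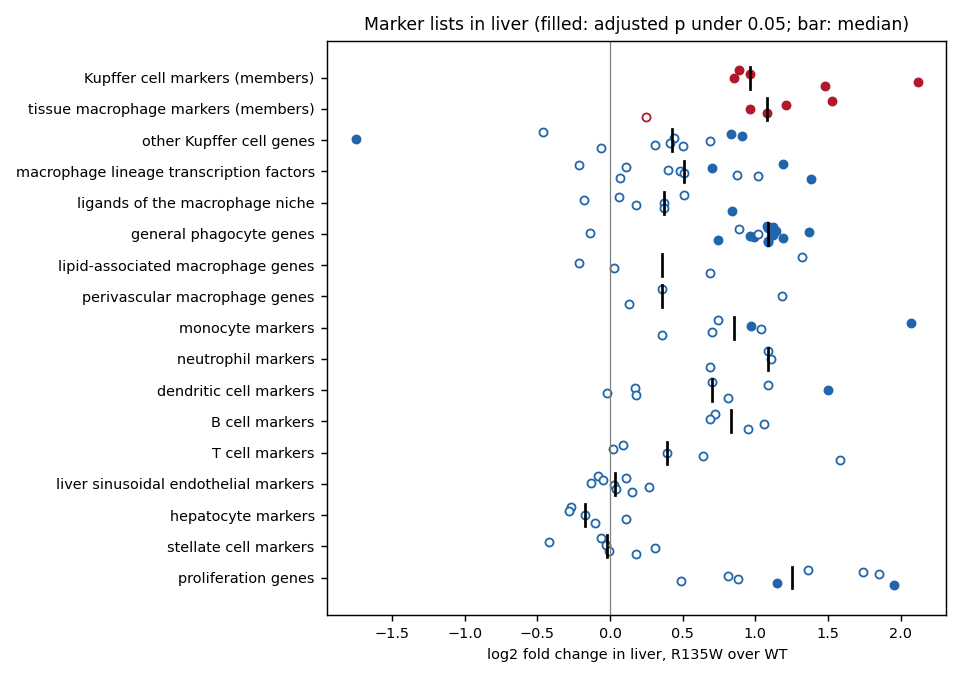
Log2 fold change in liver of R135W over WT (horizontal axis) for each tested gene of the members (red) and of 15 other marker lists (blue), 1 row per list. Filled points have an adjusted p under 0.05 and vertical bars are list medians. General phagocyte genes have a median of 1.09, and the medians for hepatocyte, sinusoidal endothelial and stellate cell genes are -0.17, 0.04 and -0.02; Cd207 is the filled point at -1.75.

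Some markers of other blood-derived cells rose in R135W livers too. Of 6 monocyte genes tested 2 rose, Ly6c2 by 2.07 (SE 0.29, edgeR adjusted p = 0.0112) and Plac8 by 0.97 (SE 0.17, 0.021), and all 7 on the list summed to 22 to 26.2 CPM in R135W livers and 11.6 to 12.5 CPM in WT livers. Ly6c2 itself was low, at 1.52, 2.15 and 2.2 CPM in R135W livers and 0.509, 0.487 and 0.395 CPM in WT livers. Of 7 dendritic cell genes Itgax, the gene of CD11c, rose 2.83-fold to 3.8 ± 0.328 CPM in R135W livers, against 1.34 ± 0.482 CPM in WT livers (SD, n = 3 each, edgeR adjusted p = 0.0219), with sums of 15.8 to 19.1 CPM in R135W livers and 13 to 13.4 CPM in WT livers. By edgeR 0 of 3 neutrophil genes, 0 of 4 B cell genes and 0 of 5 T cell genes passed, while 2, 3 and 2 of them had an unadjusted p under 0.05. So did 2449 of all 13935 genes tested in liver. The neutrophil list summed to 9.68 to 13.7 CPM in R135W livers and 4.95 to 7.75 CPM in WT livers, the B cell list to 8.35 to 12.9 CPM in R135W livers and 4.63 to 7.59 CPM in WT livers, and the T cell list to 4.26 to 5.04 CPM in R135W livers and 2.97 to 3.44 CPM in WT livers. Those with the smallest p were Csf3r (log2 fold change 0.69, edgeR adjusted p = 0.063) and S100a9 (1.11, 0.152) of neutrophils, Cd79b (1.06, 0.0772) and Ms4a1 (0.95, 0.164) of B cells, and Cd8a (1.58, 0.076) and Cd4 (0.64, 0.269) of T cells. Other settings called at most 1 neutrophil gene, 1 B cell gene and 0 T cell genes, of which Csf3r (0.0439) and Cd79b (0.0267) were called by DESeq2. The part of these cells in the members' rise was not tested. None of these blood cell lists had a counted gene at 0 counts in a liver group, and Ly6g of the neutrophil list was not among the genes counted.

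Without R135W animal 7, WT animal 6, 8 or 9, Plac8 was not called (0.0558 to 0.0831), and Ly6c2 was not called without WT animal 8 (0.054) or 9 (0.058). Itgax lost its call without R135W animal 7 or 12 or WT animal 6 or 9 (0.0554 to 0.0933). Of 8 proliferation genes Mcm5 (1.95, SE 0.32, edgeR adjusted p = 0.0182) and Mcm2 (1.15, SE 0.22, 0.0298), which encode subunits of the replicative helicase, rose, and the 8 summed to 17.8, 37 and 36.3 CPM in R135W livers 5, 7 and 12 and to 10 to 15.1 CPM in WT livers. Mcm5 lost its call without R135W animal 7 (0.0568) or WT animals 8 (0.0574) or 9 (0.0768), and Mcm2 without any library except R135W animal 5 (0.0684 to 0.116). Hepatocyte, sinusoidal endothelial and stellate cell genes gave 0 of 5, 0 of 8 and 0 of 6 called by edgeR in liver, and no other setting called any of them. An unadjusted p under 0.05 was found for 0, 0 and 1 of them, and for 2449 of all 13935 genes tested.

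In gastrocnemius 0 of 13 tested general phagocyte genes passed by edgeR, with a median of 0.09. An unadjusted p under 0.05 was found for 1 of them and for 1595 of all 13826 genes tested there. The listed genes that rose there were Fabp5, which encodes a fatty acid binding protein of lipid-laden macrophages that other cells make too (log2 fold change 0.74, SE 0.12, edgeR adjusted p = 0.0306), and Kdr, the VEGF receptor gene of endothelium (0.77, SE 0.08, 0.00918). Kdr had 52.4, 45.3 and 50.3 CPM in R135W muscles and 31, 28 and 27.6 CPM in WT muscles, clearly apart, and lost its call without WT animal 8 (0.0526). Fabp5 had 6.82, 7.64 and 6.48 CPM in R135W muscles and 4.32, 4.01 and 4.18 CPM in WT muscles, and in liver 85.8, 77 and 56.2 CPM in R135W mice and 44.3, 45 and 45.8 CPM in WT mice. It was apart in both tissues, and its effects, 0.69 in liver and 0.74 in gastrocnemius, had a difference of -0.05 (SE 0.19, edgeR adjusted p = 0.978). In gastrocnemius Fabp5 kept its call only without R135W animal 12 (0.0476), with 0.0516 to 0.155 when any other library was left out. In liver, leaving out R135W animal 12 brought it past the threshold (0.86, 0.019).

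The genes whose liver profile was most like that of the members were sought among 12712 genes of at least 1 CPM on average, by Pearson's r of log2 CPM with the members' mean over the 6 liver libraries. They were the complement gene C1qb (r = 0.999), Apobr, which encodes a receptor for apolipoprotein B (0.998), the calmodulin gene Calm3, the Fc receptor gene Fcgr1 and Fam32a (0.997 each). C1qb had 76.2, 83.1 and 76.6 CPM in R135W livers and 36.6, 27.5 and 43.9 CPM in WT livers, so it shared the low WT animal 8 and the high WT animal 9 of the members. The span was far smaller for Fam32a, at 44.8 to 45.1 CPM in R135W livers and 39.6 to 42.1 CPM in WT livers. The members themselves had r of 0.980 to 0.994, except Mrc1 at 0.683. Each member is part of the mean it was compared with, which raises its r, so these are not set against those of other genes. All r are over 6 libraries in 2 genotypes and share the split between them, so they describe these livers only.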

How the data were processed

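The deposited files hold raw counts per gene symbol of the UCSC mm10 annotation, 1 file per library, with no normalisation; per the file headers, the authors counted read pairs over exons with featureCounts 1.5.2, primary alignments only, with no strand option, and a fragment that overlaps several genes was counted for each. The submitters' processing notes name STAR 2.4.0 as the aligner. Without strand, antisense transcripts add to a gene's count.

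From these counts, edgeR 4.0.16 (R 4.3.3) gave TMM factors, a low-count filter (filterByExpr by group), quasi-likelihood F tests and Benjamini-Hochberg adjustment over all tested genes. SE was taken as the size of the log2 change over the root of F. Genotype was tested within each tissue on 6 libraries; the tissue contrast and the interaction used all 12. CPM use TMM-scaled library sizes over 12 libraries. The tests were checked on simulated data. Alternatives were RLE factors, DESeq2 1.42.0, limma-voom (limma 3.58.1), no filter, at least 1 CPM in 3 libraries, a term for age, all 12 libraries in 1 fit, the animal as a block, and each library left out. Leaving out libraries for the shares was added after seeing the data.

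The animal numbers in the titles pair each liver with the muscle of the same animal. Same-animal deviations from the group means correlated at 0.00196 to 0.084 over 12413 genes, those of different animals at -0.0971 to 0.0772.

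The members, the other lists and the tests were chosen with earlier results of these data known. From each other list the text names up to 4 called genes by smallest p (2 genes if none was called, given for the macrophage and blood cell lists in liver; the remaining lists are given by counts), and the 5 genes most like the members in liver. Mertk, Nr1h3, Il34, Csf1 in liver and Cd163 in liver were named after their values were seen. Counts without unique identifiers mean that intervals cover counting error only.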

Additional observations from a re-analysis of the deposited data

How the results depend on the processing

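Among the 10 members in liver, 130 results under other settings kept their direction; 103 also kept their side of the threshold and 27 fell short of it. The number of members called in liver was 7 to 9 in the 7 other settings and 4 to 7 with 1 library left out, against 9. Clec4f fell short under RLE factors (adjusted p = 0.0514), limma-voom (0.0507) and with age as a covariate (0.0636), and Timd4 with age (0.0521).

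Over all genes, liver calls numbered 457, against 781 by DESeq2, 274 with age and 1057 in the fit of 12 libraries, and 84 to 285 with a library left out. Of them 84% were higher in R135W livers, and 68.8% by DESeq2. Gastrocnemius calls numbered 121, against 274 by DESeq2, 20 in the fit of 12 libraries and 3 to 106 with a library left out. Calls of the difference between tissues numbered 20, against 184 by DESeq2, 7 by limma-voom, 13 with age and 6 to 34 with a library left out; 75% were higher in liver, and 57.6% by DESeq2. The difference called 0 members, against 2 by DESeq2 and 0 to 1 with a library left out. With the animal as a block, the difference called 0 members and 16 genes, and the tissue contrast 12498 genes, so the pairing changed no call of a member.

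Signs near 0 turned: in gastrocnemius Csf1r was 0.00 by limma-voom, 0.01 with age and 0.01 in the fit of 12 libraries, and -0.10 to 0.09 with a library left out, Folr2 -0.25 to 0.19, and the Mrc1 difference -0.31 to 0.09. The cause of these changes was not tested. For the 26 called genes of other lists, 259 of 338 results under other settings kept their call and the rest their direction; of 194 results for uncalled genes given with values, 7 passed and 1 turned sign, Il34 in liver (-0.03 to 0.15 with a library left out). With age as a covariate Clec1b, Irf8, Tgfb1 and Mcm2 were not called, and in the fit of 12 libraries Clec1b, Fabp5 and Kdr were not. Fitted folds of Clec4f, Vsig4, Marco and Cd5l against muscle depend on the prior count and are not given.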
